A study of Mus musculus with 6 samples.

Results

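The genes described here are 10 clock-controlled outputs that lie outside the feedback loop itself, namely Wee1, Usp2, Tsc22d3, Lonrf3, Por, Tspan4, Klf9, Klf10, Bcl6 and Leo1. They were chosen by name, as genes whose RNA is rhythmic in many tissues, and were found by Entrez Gene ID among 27179 genes of the count files. All 10 were measured in 3 immortalized mouse embryonic fibroblast lines of C57BL/6 background, each with 2 libraries made from separate RNA preparations of cells in serum-containing culture, with no synchronizing treatment given in the labels. All 3 lines lack Per1 and Per2. Cry/Per_KO cells also lack Cry1 and Cry2 and keep NR1D proteins. Per/Nr1d_KO cells also lack Nr1d1 and Nr1d2 and keep CRY proteins. Cry/Per/Nr1d_KO cells lack all 6 genes, and are 1 clone derived from Cry/Per_KO cells by CRISPR/Cas9 editing. Each genotype is thus represented by 1 line, so differences between genotypes and differences between lines cannot be told apart, and p-values measure the spread between RNA preparations.

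In the core loop, CLOCK-BMAL1 binds E-boxes and activates the Per, Cry and Nr1d genes together with output genes such as Dbp. CRY and PER proteins repress CLOCK-BMAL1, and NR1D proteins repress Arntl, which encodes BMAL1. Many genes outside the loop are rhythmic in liver, lung, kidney and other tissues, some through E-boxes, others through D-boxes bound by DBP, TEF and HLF, and others through daily signals such as glucocorticoids, temperature and feeding. The question asked of the 10 outputs was whether their levels follow those of Dbp, a direct output of CLOCK-BMAL1, and Per3, a gene of the Period family, across the 3 lines.

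For 4 of the 6 libraries the genotype given for a sample and the name of its count table disagree, so that Cry/Per_KO by one is Cry/Per/Nr1d_KO by the other. For one of these pairs the sample title gives Per/Nr1d_KO instead. The genotype was used, and the pairs are called the CP-labelled libraries (Cry/Per_KO) and the CPN-labelled libraries (Cry/Per/Nr1d_KO), beside the PN libraries (Per/Nr1d_KO). The 6 targeted genes were transcribed in every library, knocked out or not, at 1004 to 9337 normalized counts. Arntl had 1192 and 1171 normalized counts in the CPN-labelled libraries, 2176 and 2208 in the CP-labelled ones and 2493 and 2455 in the PN ones. A gene repressed by NR1D proteins was thus lower in the CPN-labelled libraries, labelled as lacking them, than in the CP-labelled ones, labelled as keeping them, which goes against these labels, while the PN libraries were highest. Of the targeted genes, Nr1d1 had 9337 and 9249 normalized counts in the CP-labelled libraries against 3158 and 3146 in the CPN-labelled ones. Cry1, which both of these lines lack, had 5323 and 5478 against 1698 and 1724. NR1D proteins repress Cry1 as well as Arntl, so the level of Cry1 RNA also goes against these labels. With the labels exchanged, every difference between the CP-labelled and CPN-labelled libraries changes sign, and the comparison of PN with Cry/Per/Nr1d_KO becomes the comparison given here as PN against CP-labelled. Library totals ran from 53764390 to 85927236 counts. Of the fibroblast markers checked, 8 of 10 passed a mean of 100 normalized counts over the 6 libraries, with a summed level of 867200 to 998200 in the CP-labelled and CPN-labelled libraries and 1714000 to 1731000 in the PN ones. Collagens and Fn1 carry this sum, while Vim, Pdgfra, Pdgfrb and S100a4 were lower in PN than in either other pair. Markers of other cell types had far lower sums. The neural markers, nearly all Tubb3, were at 361 to 362 in CP-labelled, 1781 to 1962 in CPN-labelled and 664 to 676 in PN libraries. The adipocyte markers (Pparg and Cebpa above all) were at 12.8 to 47.9 in the CP-labelled and CPN-labelled libraries and 1012 to 1072 in the PN ones. The part of these marker differences in the results below was not tested.

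RefSeq promoter sequence of GRCm38.p6, from 250 bases before to 50 after a gene start, was at hand for 8 of the 10 genes. Each window was searched on both strands for CACGTG (the E-box), CACGTT (a variant E-box), TTATGNAA (the D-box), AGGTCA (the half-site of RORE elements and of many nuclear receptors) and AGAACA (a glucocorticoid receptor half-site). A CACGTG stood in the window of Lonrf3, in 1 of 2 windows of Tspan4 and in 1 of 2 windows of Bcl6, against 7.15% of all promoter windows. AGGTCA stood in the Leo1 window, against 16.3% of all. AGAACA stood in 1 of 3 windows of Tsc22d3 and in the other window of Bcl6, where it lies 7445 bases downstream of that gene's first GENCODE start, on the opposite strand (read as TGTTCT), against 19.0% of all. The windows of Usp2, Por and Klf9 held none of the 5 motifs. No output window held TTATGNAA, which is found in 3.38% of all windows and lies at 2 places in that of Per3. The motifs, save that half-site of Bcl6, are shown in capitals in 30 bases of the gene's own strand, to set the outputs beside Per3.
Lonrf3, chrX:36328352-36328381, 45 bases before the start: cgtggtaggagtCACGTGgttgcgttttat
Tspan4, chr7:141476317-141476346, 51 bases before the start: cccccatggagcCACGTGcagagccacgag
Bcl6, chr16:23988895-23988924, 60 bases before the start: cgtcacggagccCACGTGacggcggcggag
Leo1, chr9:75441450-75441479, 62 bases before the start: ctggagaaaactAGGTCAcaaaagtaaagt
Tsc22d3, chrX:140600690-140600719, 185 bases before the start: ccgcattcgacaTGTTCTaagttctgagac
Per3, chr4:151044852-151044881, 205 bases before the start: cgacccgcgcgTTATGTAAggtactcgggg
Per3, chr4:151044805-151044834, 158 bases before the start: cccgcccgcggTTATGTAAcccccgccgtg
The start is that of the RefSeq window, and the Tspan4 match lies 1089 bases downstream of the first GENCODE start of this gene. The match of Lonrf3 lies in an annotated exon, since the first GENCODE transcript of this gene begins further upstream. A match describes the letters in these windows, and sites further away or in introns were not searched.

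Levels are normalized counts, that is counts scaled by TMM to a library of average effective size, so levels of 1 gene can be compared between libraries. A gene was called changed between pairs of libraries at an adjusted p under 0.05 and a log2 fold change beyond 0.81 in size, the limit on the fold. All 10 outputs were among the 11934 genes tested, those averaging 100 normalized counts or more. Their raw counts in a library ran from 59 (Lonrf3 in PN) to 10079. Of the 10, 4 were called lower in PN than in the CPN-labelled libraries, against 9.35% of all genes tested, and 0 were called higher, against 11.3% of all. Calls either way made up 20.7% of all genes in this comparison. Against the CP-labelled libraries 3 were called lower in PN (13.8% of all genes) and 0 higher (15.2% of all), where 29.0% of all were called either way. Between the CP-labelled and CPN-labelled libraries 1 was called higher in the former (7.86% of all genes) and 0 lower (8.95% of all). By the adjusted p alone, 6 were higher and 3 lower in CP-labelled than CPN-labelled libraries (38.1% and 38.3% of all genes), 3 higher and 7 lower in PN than in CPN-labelled (38.7% and 37.1%), and 0 higher and 7 lower in PN than in CP-labelled libraries (42.8% and 39.3%). The called outputs were Lonrf3, Tsc22d3, Usp2 and Wee1, with Wee1 called lower in PN against the CPN-labelled libraries alone, and the other 6 stayed inside the limit in every comparison.

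Dbp and Per3 set the pattern to be matched. Dbp encodes a PAR bZIP transcription factor that acts on D-boxes, and Per3 encodes the Period protein that none of these lines lacks by design. Dbp had 1675 and 1760 normalized counts in the CP-labelled libraries, 692 and 731 in the CPN-labelled ones and 175 and 140 in PN, and Per3 had 6395 and 6810, 2930 and 2950, and 1062 and 1038. Both were highest in the CP-labelled libraries, intermediate in the CPN-labelled ones and lowest in PN, with no overlap. The order of the first pairs rests on the doubted labels: with the labels exchanged, Dbp and Per3 are highest in Cry/Per/Nr1d_KO and intermediate in Cry/Per_KO, and PN stays lowest. In log2 fold change, Dbp was 1.27 higher in CP-labelled than CPN-labelled libraries (SE 0.081), and PN was at -2.20 (SE 0.11) against CPN-labelled and -3.47 (SE 0.099) against CP-labelled. For Per3 the same log2 fold changes were 1.17 (SE 0.050), -1.49 (SE 0.056) and -2.65 (SE 0.055).

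**Figure D1:**
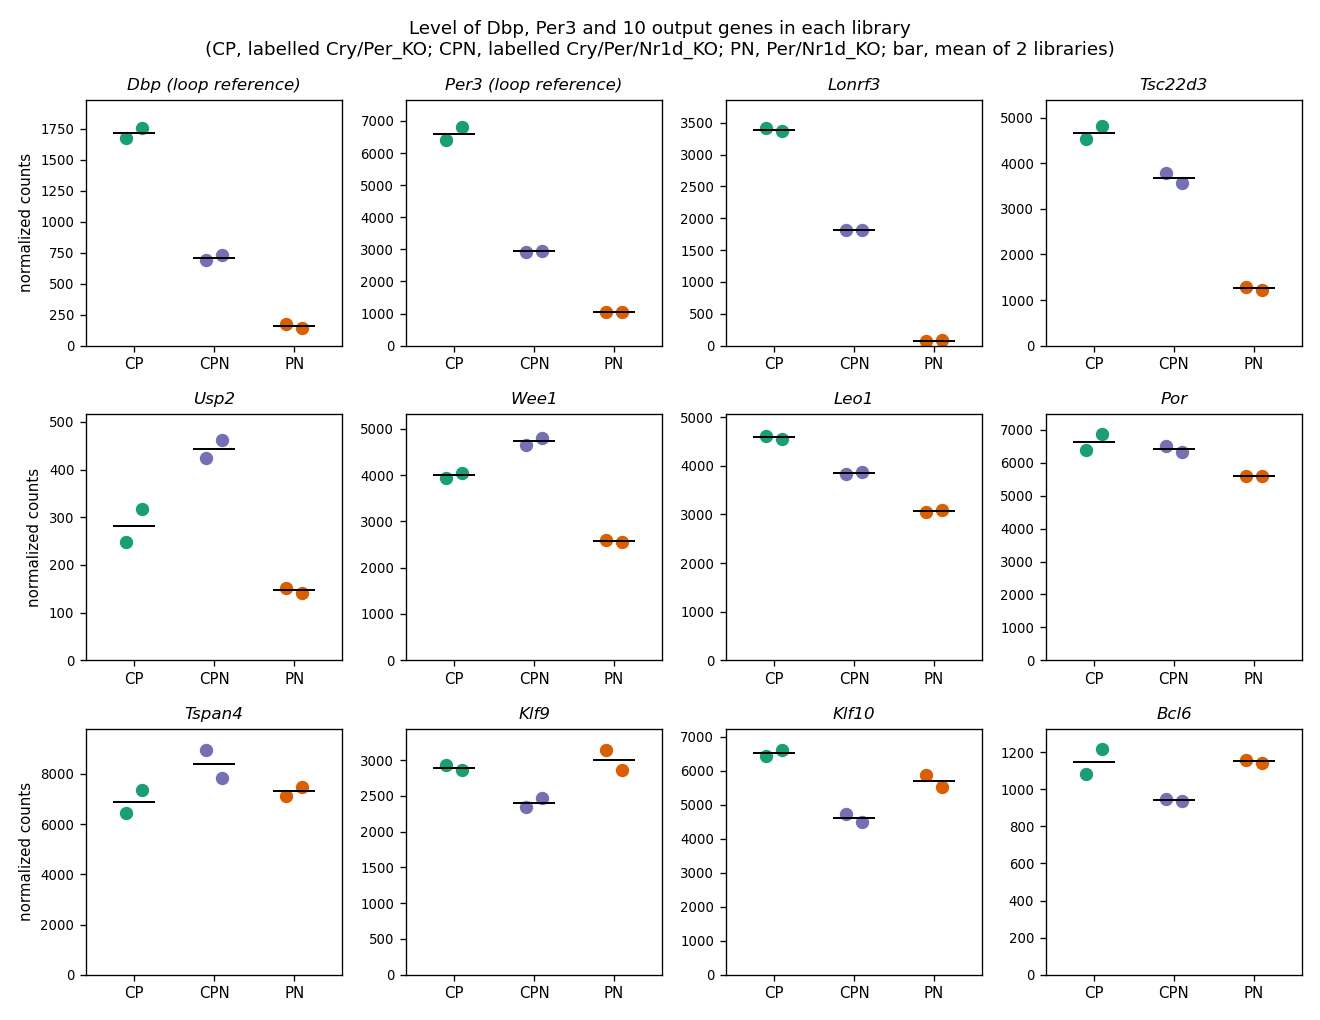
Normalized counts (vertical axes, from 0) of Dbp, Per3 and the 10 output genes, with 1 point for each library and a bar for the mean of 2 libraries. CP stands for libraries labelled Cry/Per_KO, CPN for those labelled Cry/Per/Nr1d_KO and PN for Per/Nr1d_KO. Lonrf3, Tsc22d3 and Leo1 have the order of Dbp and Per3 (Leo1 only without subtraction of its chromosome's median). Usp2 and Wee1 are highest in CPN (Wee1 only without such subtraction), and Klf9, Klf10 and Bcl6 are lowest there.

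Lonrf3 (Entrez Gene 74365, X chromosome) encodes a RING finger protein with a LON domain, of little known function. It had 3410 and 3373 normalized counts in the CP-labelled libraries, 1820 and 1819 in the CPN-labelled ones, and 74.8 and 82.1 in PN. The 3 pairs did not overlap, and PN cells were close to lacking this RNA. The log2 fold change of PN was -4.52 (SE 0.088, adjusted p = 5.9e-16) against CPN-labelled and -5.42 (SE 0.085, adjusted p = 4.2e-17) against CP-labelled, which is 23.0-fold and 42.8-fold lower. Only 1.42% and 0.905% of all genes tested had log2 fold changes as low in these comparisons. Lonrf3 was also 1.86-fold higher in CP-labelled than CPN-labelled libraries (log2 fold change 0.90, SE 0.057, adjusted p = 1.7e-09). Lonrf3 was thus the single output called in every step of the order of Dbp and Per3, which 154 of the 11934 genes (1.29%) showed. Its step from CPN-labelled to PN was larger than those of Dbp and Per3, and its step between CP-labelled and CPN-labelled was smaller, as fitted values with no test between genes. With edgeR's test of the change against the limit itself (glmTreat), in place of a limit on the fitted fold, the step between CP-labelled and CPN-labelled was not called (adjusted p = 0.15).

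Tsc22d3 (Entrez Gene 14605, X chromosome) encodes GILZ, a leucine zipper protein induced by glucocorticoids. It had 4525 and 4820 normalized counts in the CP-labelled libraries, 3795 and 3577 in the CPN-labelled ones, and 1283 and 1231 in PN. PN cells lay well below both other pairs. The log2 fold change of PN was -1.56 (SE 0.058, adjusted p = 1.6e-12) against CPN-labelled and -1.90 (SE 0.058, adjusted p = 1.0e-13) against CP-labelled, 2.94-fold and 3.73-fold lower. The CP-labelled libraries were 1.27-fold above the CPN-labelled ones (log2 fold change 0.34, SE 0.054, adjusted p = 3.6e-05), a difference past the spread between libraries but below the limit on the fold. Tsc22d3 therefore had the order of Dbp and Per3, with its largest step at the same place and a much smaller step between the pairs that share the loss of CRY. Of the 50-base stretches of its transcripts, 0.456% also occur in 1 other annotated gene, Gm8812.

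Usp2 (Entrez Gene 53376, chromosome 9) encodes a ubiquitin-specific protease, and was the lowest output per kb of exon in the CP-labelled and CPN-labelled libraries. It had 247 and 316 normalized counts in the CP-labelled libraries, 424 and 462 in the CPN-labelled ones, and 152 and 141 in PN. The pairs did not overlap, but the highest level was in the CPN-labelled libraries, unlike Dbp and Per3. The log2 fold change of PN was -1.60 (SE 0.13, adjusted p = 2.3e-08) against CPN-labelled and -0.96 (SE 0.14, adjusted p = 1.2e-05) against CP-labelled, 3.03-fold and 1.94-fold lower. The CP-labelled libraries were 1.56-fold below the CPN-labelled ones (log2 fold change -0.64, SE 0.12, adjusted p = 1.7e-04). The CP-labelled libraries differed from each other by more than those of any other output in relative terms (282 ± 48.9, SD, n = 2). Without the second of them, the log2 fold change of PN against CP-labelled was -0.76, inside the limit, and that of CP-labelled against CPN-labelled was -0.84, a called fall. Of its exon bases, 4.15% also lie in exons of Gm39325 and Gm49380 on the opposite strand.

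Wee1 (Entrez Gene 22390, chromosome 7) encodes the kinase that holds CDK1 inactive before mitosis. It had 3947 and 4046 normalized counts in the CP-labelled libraries, 4646 and 4813 in the CPN-labelled ones, and 2607 and 2556 in PN. As for Usp2, the highest level was in the CPN-labelled libraries and the lowest in PN, with no overlap. The log2 fold change of PN was -0.87 (SE 0.049, adjusted p = 2.2e-10) against CPN-labelled, a called fall of 1.83-fold, and -0.63 (SE 0.049, adjusted p = 9.0e-09) against CP-labelled, 1.55-fold lower and inside the limit. The CP-labelled libraries were 1.18-fold below the CPN-labelled ones (log2 fold change -0.24, SE 0.048, adjusted p = 2.9e-04). Subtraction of the median of chromosome 7 (-0.27) turned this log2 fold change to 0.024, so the order was then lost. The call against CPN-labelled lay close to the limit, and edgeR's test against the limit itself gave an adjusted p of 0.17.

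Leo1 (Entrez Gene 235497, chromosome 9) encodes a subunit of the PAF1 complex, which travels with RNA polymerase II. It had 4612 and 4561 normalized counts in the CP-labelled libraries, 3826 and 3873 in the CPN-labelled ones, and 3043 and 3090 in PN. These are the order of Dbp and Per3 in small steps, with no overlap between pairs. The log2 fold change was 0.25 (SE 0.046, adjusted p = 1.5e-04) for CP-labelled against CPN-labelled, -0.33 (SE 0.047, adjusted p = 1.4e-05) for PN against CPN-labelled and -0.58 (SE 0.047, adjusted p = 1.5e-08) for PN against CP-labelled. None of these passed the limit on the fold, and all 3 turned sign once the median of chromosome 9 was subtracted (-0.12, 0.13 and 0.26), so the order was then lost.

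The other 5 outputs stayed inside the limit on the fold throughout. Por (Entrez Gene 18984, chromosome 5), the reductase that passes electrons to microsomal cytochromes P450, had 6394 and 6865 normalized counts in CP-labelled, 6518 and 6328 in CPN-labelled and 5592 and 5610 in PN libraries. Its PN libraries were the lowest, by 1.15-fold against CPN-labelled (adjusted p = 0.0016) and 1.18-fold against CP-labelled (adjusted p = 2.5e-04), while the other pairs overlapped. Tspan4 (Entrez Gene 64540, chromosome 7), a tetraspanin of the cell surface, had 6432 and 7351 normalized counts in CP-labelled, 8949 and 7817 in CPN-labelled and 7116 and 7481 in PN libraries. The CPN-labelled libraries were above the rest, and the CP-labelled and PN libraries overlapped (log2 fold change of PN 0.08, SE 0.068, adjusted p = 0.27). Of its exon bases, 13.4% also lie in exons of Chid1 on the opposite strand.

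Klf9, Klf10 and Bcl6 encode zinc finger transcription factors. Klf9 (Entrez Gene 16601, chromosome 19), which glucocorticoids induce, had 2928 and 2854 normalized counts in CP-labelled, 2347 and 2467 in CPN-labelled and 3145 and 2855 in PN libraries. Klf10 (Entrez Gene 21847, chromosome 15), an early gene of TGF-beta signalling, was at 6436 and 6602, 4743 and 4509, and 5870 and 5529 normalized counts in this order. Bcl6 (Entrez Gene 12053, chromosome 16), a repressor best known from germinal centre B cells, had 1083 and 1215, 949 and 937, and 1159 and 1141 normalized counts. All of these genes were lowest in the CPN-labelled libraries, with no overlap with either other pair. The log2 fold change of PN against CPN-labelled was 0.32 for Klf9 (SE 0.059, adjusted p = 1.8e-04), 0.30 for Klf10 (SE 0.049, adjusted p = 5.4e-05) and 0.28 for Bcl6 (SE 0.073, adjusted p = 0.0026). Against CP-labelled libraries PN differed by 0.05 for Klf9 (SE 0.059, adjusted p = 0.44) and by -0.0011 for Bcl6 (SE 0.072, adjusted p = 0.99), less than the spread between libraries, and by -0.20 for Klf10 (SE 0.049, adjusted p = 0.0018). Between CP-labelled and CPN-labelled libraries Klf10 had the steepest rise of the 3, at 0.49 (SE 0.049, adjusted p = 2.8e-07) or 1.41-fold, where the median of chromosome 15 was -0.29, and Klf9 and Bcl6 were at 0.27 (SE 0.059, adjusted p = 8.5e-04) and 0.29 (SE 0.073, adjusted p = 0.0025). For none of these 3 was PN below both other pairs.

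**Figure D2:**
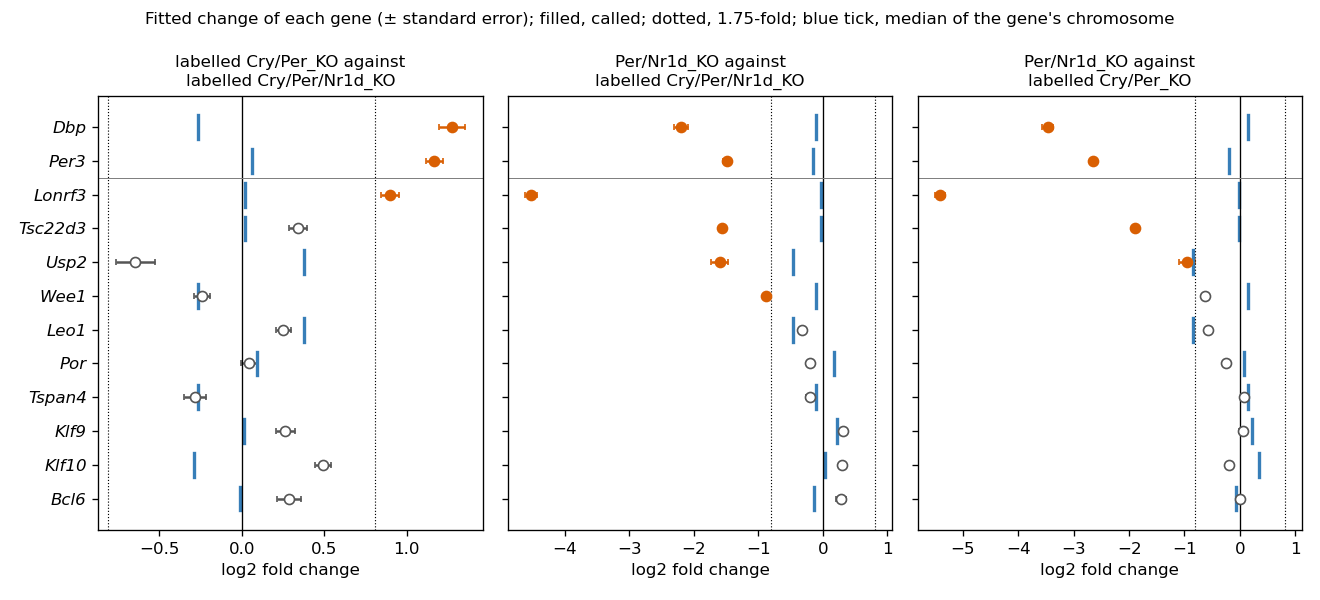
Log2 fold change (horizontal axes, with bars of 1 standard error) of Dbp, Per3 and the 10 outputs in each comparison. Filled points were called, dotted lines mark the limit on the fold and blue ticks mark the median of all tested genes on the same chromosome. Lonrf3 and Tsc22d3 lie far from the X chromosome's median against both pairs, while Usp2 at -0.96 lies beside that of chromosome 9 (-0.84) in PN against CP-labelled libraries.

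Read by the adjusted p alone, with no limit on the fold, 3 outputs (Lonrf3, Tsc22d3 and Leo1) had the order of Dbp and Per3 in each step, against 13.1% of all genes tested, with Leo1 losing it when its chromosome's median was subtracted. PN was below both other pairs by this measure for 6 outputs (Lonrf3, Tsc22d3, Usp2, Wee1, Leo1 and Por), against 26.0% of all genes, and above both for 0, against 28.0%. With the limit on the fold, 3 outputs (Lonrf3, Tsc22d3 and Usp2) were called lower in PN than in both pairs, against 7.14% of all genes, and 0 were called higher than in both, against 8.20%. Of these, Usp2 lost its call against CP-labelled libraries with its chromosome's median subtracted (-0.12), without CP-labelled library 2 (-0.76), with edgeR's test against the limit itself (adjusted p = 0.20) and with DESeq2 at an adjusted p limit of 1e-22. The order with the CPN-labelled libraries highest and PN lowest, that of Usp2 and Wee1, was found in 5.75% of all genes by the adjusted p alone. Wee1 lost this order when its chromosome's median was subtracted. Exchanging the labels leaves PN lowest in each of these 6 genes and changes only the name of the pair at the top. With 76.4%, 75.8% and 82.1% of all genes past the adjusted p in the 3 comparisons, a small adjusted p by itself set no output apart. The median absolute log2 fold change of the 10 outputs was 0.28, 0.32 and 0.41 (CP-labelled against CPN-labelled, PN against CPN-labelled, PN against CP-labelled), beside 0.34, 0.34 and 0.46 over all genes tested.

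Likeness was also measured as the root-mean-square distance between log2 levels of the 3 lines, each gene centred on its own mean, over 11934 genes. Dbp was the 166th nearest gene to Lonrf3 (distance 1.02) and Per3 the 286th (1.36). In distance itself, Lonrf3 was the furthest of the outputs from Per3. Its distance from Dbp was near that of Usp2 (1.07), so its ranks do not mean that the levels lay close. To Tsc22d3, Per3 was the 468th nearest (0.374) and Dbp the 2052nd (0.635). For the other 8 outputs Dbp and Per3 ranked between 8320 and 11047, so most tested genes were nearer to these outputs than Dbp or Per3 was. The genes nearest to Lonrf3 were Cped1 (distance 0.0091), Pcdhgb6 (0.044) and Arhgdib (0.053). Those nearest to Tsc22d3 were Cspg4 (0.038), Phyhd1 (0.042) and Ccdc92 (0.050). Those nearest to Usp2 were Hipk4 (0.025), Eef2k (0.030) and Mt1 (0.032), and those nearest to Wee1 were Vim (0.0024), Prpsap2 (0.0061) and Il1rap (0.0081). Cped1, for example, had 3368 and 3289 normalized counts in CP-labelled, 1741 and 1848 in CPN-labelled and 73.5 and 82.8 in PN libraries, almost the levels of Lonrf3. These ranks describe 3 lines and rest on 6 libraries.

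The median change differed between chromosomes, and Usp2 and Leo1 lie on one whose median was far from 0. The 657 tested genes of chromosome 9 had a median log2 fold change of 0.38 (CP-labelled against CPN-labelled), -0.46 (PN against CPN-labelled) and -0.84 (PN against CP-labelled), whereas the median of all genes was -0.0033, 0.01 and 0.03. Leo1, at 0.25, -0.33 and -0.58, moved by less than its chromosome each time, and after subtraction of the chromosome's median its log2 fold changes were -0.12, 0.13 and 0.26. Usp2, at -0.96 in PN against CP-labelled libraries, was 0.12 below the median of chromosome 9, where 40.3% of the genes were as low. In PN against CPN-labelled libraries Usp2 was 1.14 below the median and 6.70% of the chromosome's genes were as low. The X chromosome, with 390 tested genes, had medians of 0.02, -0.03 and -0.02, and after their subtraction Lonrf3 and Tsc22d3 were at -4.49 and -1.52 in PN against CPN-labelled libraries. Wee1 on chromosome 7 was at -0.77 in that comparison after subtraction of a median of -0.11, inside the limit. Between CP-labelled and CPN-labelled libraries the median of chromosome 7 was -0.27. Its subtraction moved Wee1 from -0.24 to 0.024 and Tspan4, on the same chromosome, from -0.28 to -0.016. The part of these chromosome-wide differences in the results for Usp2, Leo1, Wee1 and Tspan4 was not tested.

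**Figure D3:**
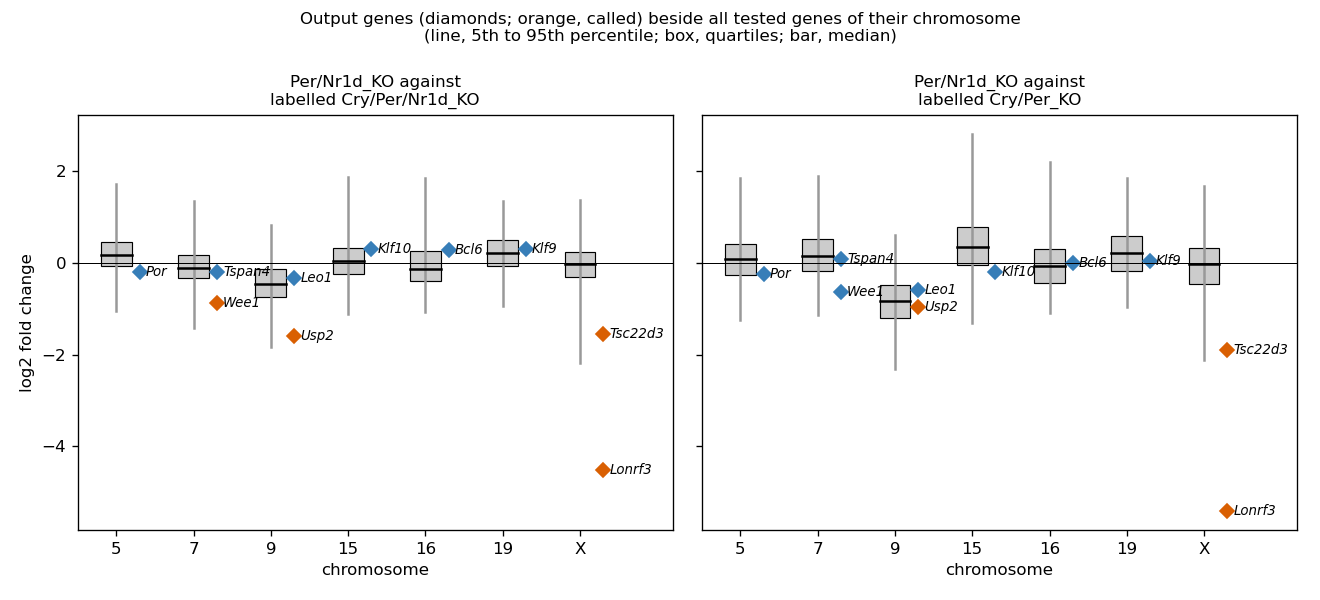
Log2 fold change of PN libraries (vertical axes) for the 10 outputs (diamonds, orange where called) beside the tested genes of each output's chromosome (line from the 5th to the 95th percentile, box for the quartiles, bar for the median). The median and the box of chromosome 9 lie below 0, with Leo1 above its median in both panels, and Lonrf3 lies below the 5th percentile of the X chromosome in both.

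Compared per length, as normalized counts per kb of GENCODE exon, Tspan4 was the most abundant output in every pair, at 3164 ± 298 in CP-labelled, 3849 ± 367 in CPN-labelled and 3351 ± 119 in PN libraries (SD, n = 2). Por and Klf10 followed in CP-labelled and PN libraries at 1649 ± 82.9 and 1560 ± 28.1, and at 1393 ± 3.14 and 1364 ± 57.7 (SD, n = 2). The levels of Por and Klf10 in PN were closer than the spread between libraries. Lonrf3 moved furthest in this ranking, from 890 ± 6.93 in CP-labelled and 477 ± 0.185 in CPN-labelled libraries to 20.6 ± 1.35 in PN (SD, n = 2). In PN libraries it was the lowest of the 10 outputs, below Usp2 at 30.4 ± 1.59 (SD, n = 2).

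The loop itself served as the list to set beside the outputs. Of its 20 genes and PAR bZIP factors, 18 were tested, among them Dbp and Per3. In PN against CPN-labelled libraries 9 of the 18 were called lower and 4 higher (9.35% and 11.3% of all genes), with a median log2 fold change of -0.68, and against CP-labelled libraries 12 were called lower and 1 higher (13.8% and 15.2% of all), with a median of -1.57. For the 10 outputs the medians in the same comparisons were -0.26 and -0.41, and for all genes tested 0.01 and 0.03. Between CP-labelled and CPN-labelled libraries 7 of the 18 were called higher and 0 lower, beside 7.86% and 8.95% of all genes (median 0.61, against 0.26 for the outputs). The steepest falls in PN were those of Bhlhe41, a repressor that acts at E-boxes, at log2 fold changes of -4.56 (SE 0.14) and -4.93 (SE 0.14), and of Hlf, a PAR bZIP factor, at -3.99 (SE 0.14) and -4.22 (SE 0.13). Npas2, a partner of BMAL1, was called higher in PN, at 2.62 (SE 0.16) and 2.09 (SE 0.16). It had 64.6 and 67.8 normalized counts in CP-labelled, 49.7 and 41.1 in CPN-labelled and 312 and 260 in PN libraries. Npas2 thus passed the limit on the mean normalized count only through PN, which favours its higher calls there, counted above. Of the 18, 9 were called lower in PN than in both pairs, beside 7.14% of all genes, and only Dbp and Per3 were called in all steps of their shared order. By the adjusted p alone 9 of the 18 (Hlf, Per1, Per2, Cry1, Cry2, Bhlhe40 and Bhlhe41 besides) had this order, Dbp and Per3 included, beside 13.1% of all genes tested.

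Other outputs rhythmic in many tissues, from a second list of 20 genes, were called in both directions. Of the 19 tested, 3 were called lower and 3 higher in PN against CPN-labelled libraries (median log2 fold change 0.17), where 9.35% and 11.3% of all genes were, and 3 lower and 5 higher against CP-labelled libraries (median 0.38), where 13.8% and 15.2% of all genes were. Between CP-labelled and CPN-labelled libraries 1 was called higher and 1 lower (median -0.0019), beside 7.86% and 8.95% of all genes. The genes called lower in PN than in both pairs were Ces2g, Pdk4 and Dtx4, beside 7.14% of all genes. Pdk4, a kinase that restrains pyruvate dehydrogenase, had 1825 and 1715 normalized counts in CP-labelled, 1147 and 1095 in CPN-labelled and 175 and 185 in PN libraries, the order of Dbp and Per3 with an uncalled first step. Ces2g, a carboxylesterase gene, had 1524 and 1524, 146 and 151, and 10.1 and 7.10 normalized counts, and was the single gene of this list called in the full order. Slc16a1, a monocarboxylate transporter gene, was at a log2 fold change of 2.22 (SE 0.048) in PN against CP-labelled libraries. Against CPN-labelled libraries PN was at 0.58 (SE 0.044), inside the limit. The CP-labelled libraries were at -1.63 (SE 0.047) against the CPN-labelled ones, a called fall. Cdkn1a, which encodes the cell cycle inhibitor p21, was higher in PN, with 24464 and 24154 normalized counts against 5166 to 6490 in the other libraries.

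Tsc22d3 and Klf9 are both targets of the glucocorticoid receptor, and so are other genes of a list of 20, of which 17 were tested (Tsc22d3, Klf9 and Per1 included). In PN against CPN-labelled libraries 4 of the 17 were called lower and 6 higher (median log2 fold change 0.32), beside 9.35% and 11.3% of all genes, and against CP-labelled libraries 6 lower and 5 higher (median 0.05), beside 13.8% and 15.2%. Between CP-labelled and CPN-labelled libraries 5 were called higher and 1 lower (median 0.46), beside 7.86% and 8.95%. The lower call was Cdkn1c, at 3.34 and 3.93 normalized counts against 20.4 and 20.0. Angptl4, at 34.5 and 38.3 against 11.5 and 12.2, was among the higher calls. Both genes passed the limit on the mean normalized count only through PN, so their calls in this comparison rest on low counts. Passing only through PN also favours their higher calls there, counted above. Fkbp5, which encodes a chaperone partner of the receptor, fell with Tsc22d3, from 7384 and 7640 (CP-labelled) or 9155 and 8910 (CPN-labelled) to 3406 and 3507 normalized counts in PN. Angptl4, a secreted inhibitor of lipoprotein lipase, was higher in PN, with 363 and 333 normalized counts against 34.5 and 38.3 (CP-labelled) and 11.5 and 12.2 (CPN-labelled). Cdkn1c, a cell cycle inhibitor gene, had 1191 and 1012 normalized counts in PN against 3.34 to 20.4 in the other libraries. The receptor gene Nr3c1 was at 13458 and 13468, 9293 and 9893, and 7313 and 7415 normalized counts in CP-labelled, CPN-labelled and PN libraries. Calls in this list went in both directions, and Tsc22d3 and Klf9 differed in direction in PN against CPN-labelled libraries.

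Wee1 and its partners at the entry into mitosis made a list of 12 genes, 11 of them tested. In PN 3 were called lower against CPN-labelled (Wee1, Ccnb2 and Cdc25b, median log2 fold change -0.64) and 4 against CP-labelled libraries (Ccnb2, Cdc25b, Cdc25c and Chek1, median -0.25), and 0 were called higher in either. Of all genes, 9.35% and 13.8% were called lower in these comparisons and 11.3% and 15.2% higher. With chromosome medians subtracted, Wee1 (-0.77) and Ccnb2 (-0.73) fell inside the limit in the former and Cdc25c (-0.59) and Chek1 (-0.25) in the latter, while Ccna2, on chromosome 3, went past it there (-0.20 before and -1.08 after). Ccnb2, a B-type cyclin, was at 15988 and 16582, 9410 and 9745, and 4259 and 4136 normalized counts in CP-labelled, CPN-labelled and PN libraries. Cdc25b, a phosphatase that opposes WEE1, had 7280 and 7486, 9407 and 8716, and 3856 and 3888 normalized counts, the order of Wee1. Between CP-labelled and CPN-labelled libraries 0 of the 11 were called (median 0.05), beside 16.8% of all genes, and 5 were higher and 5 lower by the adjusted p alone, beside 38.1% and 38.3%.

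Of the 6 PAF1 complex genes, 0 were called in any comparison with the limit on the fold, where 16.8%, 20.7% and 29.0% of all genes were, and the medians were -0.28, -0.15 and 0.28 on the log2 scale. By the adjusted p alone, Leo1 and Wdr61 were lower in PN than in CP-labelled libraries and the other 4 higher, beside 39.3% and 42.8% of all genes. Leo1 and Wdr61 are the members of the complex on chromosome 9, and the part of the chromosome in this was not tested. Wdr61 was at 4845 and 5339, 4594 and 4352, and 3283 and 3536 normalized counts in CP-labelled, CPN-labelled and PN libraries. Of the 7 genes listed for Bcl6 and its corepressors, 0 were called in any comparison with the limit, and 5, 6 and 5 of them differed by the adjusted p alone, as 76.4%, 75.8% and 82.1% of all genes did.

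**Figure D4:**
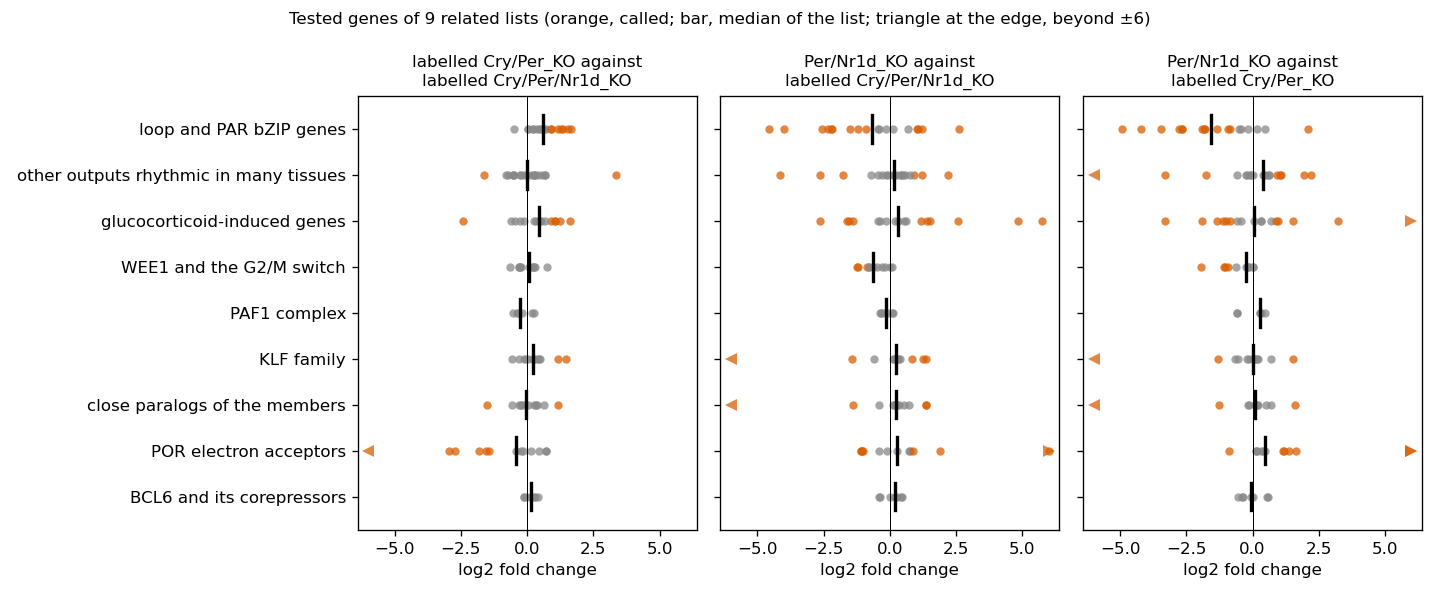
Log2 fold change (horizontal axes) of the tested genes of 9 lists related to the outputs, with 1 point for each gene, orange where called, and a bar for the median of a list. Triangles at the edges stand for values beyond 6 in size. The loop and PAR bZIP genes lie to the left in both comparisons of PN libraries (medians -0.68 and -1.57), whereas the other outputs have medians of 0.17 and 0.38.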

How the data were processed

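RNA was sequenced from 3 mouse embryonic fibroblast lines, 2 libraries each. Per the labels and the study's methods, poly-A RNA was made into stranded libraries, read as single ends of 50 bases, mapped to mm10 with STAR and counted per Entrez gene with featureCounts. The authors deposited the raw counts of each library, and totals were 53764390 to 85927236 counts. The strand setting of the counting is not given in the sources used here, so reads of genes that overlap on opposite strands may not be told apart. Tables of the authors' own comparisons (DESeq2 1.22.2 fold changes and p-values) were not used.

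IDs were matched to symbols through RefSeq (GRCm38.p6), for 25275 of 27179 genes. Counts were normalized by TMM and tested in edgeR 4.0.16 (R 4.3.3), with quasi-likelihood F tests in 1 fit of all 6 libraries, over the 11934 genes averaging 100 or more normalized counts. P-values were adjusted by Benjamini-Hochberg over all of them, and a call needed an adjusted p under 0.05 and a log2 fold change beyond 0.81 in size, the fold limit of the study. The standard error was taken as the absolute log2 fold change divided by the root of F. The common biological coefficient of variation was 0.0393. Counts of the libraries within each line gave a chi-square of 8.07 to 16.8 per degree of freedom, so no pair differed by less than sampling noise. The script was tested on simulated counts. Exon lengths and overlaps came from GENCODE vM21, and promoters from RefSeq.

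The members and the lists were chosen with earlier results of these data known. Named were all members, Dbp and Per3, the 3 tested genes nearest to a member, and from each list mainly the called genes with the steepest rises and falls. Alternatives were DESeq2 1.42.0, other scalings, filters and fold limits, a replicate block, subtraction of chromosome medians, and leaving out each library.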

Additional observations from a re-analysis of the deposited data

How the results depend on the processing

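Over 16 alternatives, 439 of 480 values of the 10 outputs kept their direction and their side of the threshold, 8 lost the call, 20 gained one and 13 changed sign. Subtracting the median of the own chromosome turned Leo1 to -0.12, 0.13 and 0.26 (CP-labelled against CPN-labelled, PN against CPN-labelled, PN against CP-labelled), Wee1 to 0.024 and Por to -0.044 in the first of these comparisons, and Klf9 to -0.16, Tspan4 to -0.071 and Bcl6 to 0.065 in the last, all as log2 fold changes. Leaving out 1 library moved Por between -0.0067 (without CP-labelled library 2) and 0.096 in the first comparison. In the last it moved Bcl6 between -0.080 and 0.086 (without CP-labelled library 2, and 0.012 without PN library 2), Klf9 between -0.018 (without PN library 1) and 0.12, and Tspan4 between -0.0094 (without CP-labelled library 1) and 0.18. The cause of these turns was not tested.

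Outputs called numbered 1, 4 and 3 in the 3 comparisons, and 9, 10 and 7 with no limit on the fold. Without 1 library they numbered 1 to 2, 4 and 2 to 3. The changes came from Usp2 without CP-labelled library 2, at -0.84 between CP-labelled and CPN-labelled libraries and -0.76 between PN and CP-labelled ones. With chromosome medians subtracted 2 outputs (Lonrf3 and Usp2, at 0.88 and -1.02) were called between CP-labelled and CPN-labelled libraries, while Wee1 (-0.77) and Usp2 (-0.12) lost their calls in the comparisons of PN with CPN-labelled and with CP-labelled libraries. With edgeR's test against the fold limit itself (glmTreat), 0 outputs were called in the first comparison, Wee1 and Usp2 lost their calls against CPN-labelled and CP-labelled libraries in turn, and 0 had the called order of Dbp and Per3, against 1, and 3 had it with no limit on the fold. With DESeq2 at the adjusted p limit of 1e-22, Usp2 (-1.61 and -0.96) lost both calls in PN.

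Over all genes, 2006, 2468 and 3457 were called. With no expression filter these were 3808, 4576 and 5590, with a mean of at least 10 they were 3311 and 3912 in the first 2, and with no limit on the fold 9118, 9042 and 9793. DESeq2 at 1e-22 called 1149 in the first. Without 1 library the counts were 1998 to 2042, 2451 to 2519 and 3434 to 3496.

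The replicate numbers only name the libraries. Deviations of same-numbered libraries from their line means correlated at -0.21, -0.02 and -0.10 between lines, and with the replicate number as a block 1, 4 and 3 outputs and 2002, 2468 and 3457 genes were called, with Lonrf3 at 0.90, -4.52 and -5.42.

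With 2 libraries per line and 1 line per genotype, small differences such as those of Por, Tspan4 and Bcl6 rest on few values, and the lowest count behind any output was 59, for Lonrf3 in PN.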

Other observations

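Several relatives of the outputs differed widely between the lines, in comparisons where 16.8%, 20.7% and 29.0% of all genes were called either way (CP-labelled against CPN-labelled, PN against CPN-labelled, PN against CP-labelled). Of 16 KLF genes 13 were tested. Between CP-labelled and CPN-labelled libraries 2 were called higher in the former (Klf8 and Klf11), beside 7.86% of all genes. In PN 3 were called higher and 2 lower than in CPN-labelled libraries, beside 11.3% and 9.35%. Against CP-labelled libraries 1 was called higher in PN and 2 lower, beside 15.2% and 13.8%. Klf4, a factor of epithelial differentiation and pluripotency, had 3517 and 3656 normalized counts in CP-labelled, 4061 and 3778 in CPN-labelled and 1560 and 1366 in PN libraries. Klf5, which promotes proliferation, had 245 and 227, 281 and 299, and 741 and 634. Klf12 was at 0 in both PN libraries, against 481 to 776 normalized counts in the others. Klf9 and Klf10 were not called in any comparison.

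Of 16 close paralogs of the outputs, 12 were tested. Tsc22d1, a paralog of Tsc22d3, went the other way, with 5872 and 6129 normalized counts in CP-labelled, 7300 and 6802 in CPN-labelled and 18129 and 18040 in PN libraries. Its log2 fold change in PN was 1.36 (SE 0.047) against CPN-labelled and 1.59 (SE 0.047) against CP-labelled libraries. The tetraspanin gene Tspan9 was lower in PN, at -1.38 (SE 0.051) and -1.27 (SE 0.051), whereas Tspan4 was not called. Tspan11 had 195 and 237 normalized counts in CP-labelled, 647 and 594 in CPN-labelled and 1.27 and 0 in PN libraries.

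Por passes electrons to cytochromes P450 and other microsomal enzymes. Of 15 such acceptors 13 were tested, and 6 were called lower in CP-labelled than CPN-labelled libraries, beside 8.95% of all genes. In PN 4 were called higher and 4 lower than in CPN-labelled libraries, beside 11.3% and 9.35% of all. Against CP-labelled libraries 6 were called higher in PN and 1 lower, beside 15.2% and 13.8%. Of the calls between CP-labelled and CPN-labelled libraries, that of Cyp7b1 rests on low normalized counts (1.11 and 0 against 3.55 and 6.66). Cyp7b1 and Cyp2u1 passed the limit on the mean normalized count only through PN, which favours their higher calls there, counted above. Cyp2u1 had 81.2 and 101 normalized counts in CP-labelled, 60.4 and 51.1 in CPN-labelled and 207 and 208 in PN libraries. Cyp51 and Sqle, enzymes of cholesterol synthesis, were highest in CPN-labelled libraries, at 14116 and 14767 and at 16218 and 15480 normalized counts, against 5242 to 7157 and 5347 to 7556 in the others. Cyp1b1, which metabolizes steroids and aromatic hydrocarbons, had 2.23 and 0.98 normalized counts in CP-labelled, 1020 and 1067 in CPN-labelled and 65345 and 67586 in PN libraries. Por itself stayed within 1.18-fold.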
